A study of Caenorhabditis elegans with 30 samples.

Results

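The question addressed here was whether loss of swsn-9 altered the transcriptional response of Caenorhabditis elegans to prolonged ethanol exposure. For every gene, the log2 ethanol effect in swsn-9 mutants (RA503-400 over RA503-0) was set against the log2 ethanol effect in wild type (N2-400 over N2-0), and the difference between them, the interaction of ethanol and genotype, was tested. The comparison used the 20 libraries, of 30 in the series, that were harvested immediately after exposure, and it was made for each of 17175 genes. The groups were swsn-9(ok1354) mutants of strain RA503 exposed to 400 mM ethanol (RA503-400), the same mutants at 0 mM (RA503-0), wild-type strain N2 at 400 mM (N2-400) and N2 at 0 mM (N2-0), with 5 libraries in each. All worms were hermaphrodites placed on plates as fourth-stage larvae and taken as first-day adults after 18 h, fed on the same bacteria, with polyA RNA extracted from whole pooled animals. Each replicate was collected on a different day with its control and ethanol plates in parallel. Unless another setting is named, values below come from a fit that did not pair libraries by their number. The labels do not say that such a number marks a day. Pairing control and ethanol libraries by it (the replicate block) gave 918 genes past the interaction test, against 529 in the reported fit. The sources used here do not state whether the mutants and N2 were grown on the same days. Genotype and day of culture therefore cannot be told apart in the genotype comparisons. In the interaction, a difference by genotype cannot be told apart from an ethanol effect that varied by day. The mutants are 1 strain with 1 allele, and a whole-animal library cannot separate fewer cells of a type from less RNA per cell.

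SWSN-9 is a bromodomain protein and an accessory subunit of PBAF, one of the forms of the SWI/SNF chromatin remodeler, which uses ATP to move nucleosomes and so opens or closes regulatory DNA. Worms oxidize ethanol to acetaldehyde with alcohol dehydrogenases and acetaldehyde to acetate with aldehyde dehydrogenases, and acetyl-CoA synthetases pass the acetate into lipid and energy metabolism. The intestine is the main site of this metabolism and also produces secreted lectins, lysozymes and digestive enzymes that form part of the defense against microbes.

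The 20 libraries held 11812827 to 21922377 counts assigned to genes, with a median of 16157229. Ribosomal RNA took 6.43% of counts in N2-0 replicate 5 and at most 1.02% in the other 19. The swsn-9 gene (chromosome I, 7224656 to 7227765) had 65.3, 63.6, 64.2, 67.1 and 60.3 CPM (counts scaled to a common library size) in the RA503-400 libraries and 59.8, 59.5, 65.4, 65.3 and 55.4 CPM in the RA503-0 libraries, against 185, 181, 212, 198 and 204 CPM in N2-400 and 204, 191, 207, 183 and 192 CPM in N2-0. All 10 mutant libraries were thus below all 10 wild-type libraries, and the ethanol effect on swsn-9 did not pass the interaction test (0.07, adjusted p = 0.722). Markers of yolk-producing intestine, oocytes, germline, muscle, pharynx and neurons were expressed in every library.

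Ethanol changed more genes in the mutants, and 529 genes passed the interaction test. In the mutants, 3635 genes were differentially expressed genes (DEGs, adjusted p under 0.05), of which 1872 (10.9% of the genes tested) were upregulated and 1763 (10.3%) downregulated by ethanol. In wild type, 2313 genes were DEGs, 1138 (6.63%) upregulated and 1175 (6.84%) downregulated. The interaction passed for 529 genes (3.08%), with a median difference of 0.86 in size on the log2 scale, while the median interaction over all genes was 0.02. The log2 effect was higher in the mutants for 238 of them (1.39%) and lower for 291 (1.69%), so 44.99% were higher. The count and the split moved with the settings. With the replicate number as a block, 454 were higher and 464 lower (49.46% higher). With the size factors of DESeq2, which change the scaling alone, 205 were higher and 386 lower. With the recovery libraries in the fit 218 were higher and 768 lower, and among the 12681 genes with a mean count of at least 10, 217 were higher and 624 lower. Without RA503-0 replicate 5, 391 were higher and 342 lower. Many more genes differed between mutants and wild type, 7508 (43.7%) at 0 mM and 8597 (50.1%) at 400 mM. Day of culture cannot be told apart from genotype in these counts.

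Most of the 529 genes fell into 3 classes by how the mutant effect compared with that in wild type. The effect was weaker in 229 genes (1.33% of the genes tested), which means that they were DEGs in wild type and had a smaller effect in the mutants. It was stronger in 244 genes (1.42%), which were DEGs in the mutants with a larger effect than in wild type. It was reversed in 42 genes (0.245%), which were DEGs in both genotypes with opposite signs. The remaining 14 genes met none of these definitions. Among the weaker genes the median size of the effect was 0.20 in the mutants and 1.14 in wild type, on the log2 scale, and 119 were higher with ethanol in wild type and 110 lower. Among the stronger genes it was 0.72 in the mutants and 0.15 in wild type, and 103 were higher with ethanol in the mutants and 141 lower. Of the reversed genes, 26 were downregulated in the mutants and upregulated in wild type, and 16 were the other way round. The stronger class held 419 genes without RA503-0 replicate 5, and the reversed class 27 without RA503-400 replicate 4. In the replicate block the classes held 362 weaker, 447 stronger and 89 reversed genes.

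**Figure D1:**
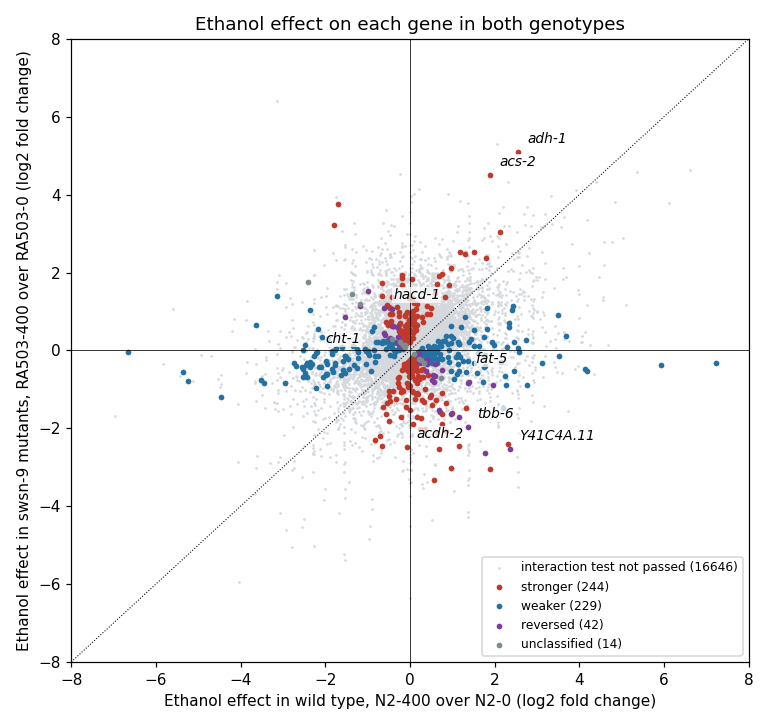
Ethanol effect on each of 17175 genes, with the log2 fold change in wild type (N2-400 over N2-0) on the x axis and in swsn-9 mutants (RA503-400 over RA503-0) on the y axis; 1 gene lies outside the axes. Weaker genes (blue, 229) spread along the horizontal, stronger genes (red, 244) along the vertical, and reversed genes (purple, 42) lie in the upper left and lower right, away from the dotted line of equal effects.

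Among enzymes of ethanol and acetaldehyde oxidation, the alcohol dehydrogenase adh-1, the aldehyde dehydrogenases alh-1 and alh-5 and the acetyl-CoA synthetase acs-19 had a stronger rise in the mutants, and most members of the list did not pass the interaction test. The gene adh-1 (chromosome V, 11888248 to 11889650), which encodes an alcohol dehydrogenase formerly named SODH-1, had 633, 525, 369, 582 and 496 CPM in RA503-400 and 10.9, 10.9, 11.7, 17.7 and 23.9 CPM in RA503-0. In wild type it had 64.9, 53.0, 50.7, 94.1 and 66.2 CPM in N2-400 and 12.1, 11.6, 6.17, 10.8 and 15.7 CPM in N2-0. The exposed mutant libraries were all above every exposed wild-type library, and the unexposed libraries of both genotypes overlapped. Ethanol raised adh-1 34.2-fold in the mutants and 5.85-fold in wild type, an interaction of 2.55 (SE 0.32, adjusted p = 5.76e-05). Its neighbor sodh-2 overlaps adh-1 on the opposite strand, was at 0 to 2 counts in RA503-0 and 0 or 1 in N2-0, and had 31 to 62 counts in RA503-400 and 22 to 53 in N2-400. The interaction test was not passed by sodh-2 (adjusted p = 0.320), and whether reads of the pair were counted by strand is not given in the sources used here.

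Mitochondrial aldehyde dehydrogenase alh-1 (chromosome III, 5077764 to 5080661) had 412, 394, 365, 436 and 410.4 CPM in RA503-400 and 253, 269.8, 254, 260.4 and 255 CPM in RA503-0, against 316, 336, 310.0, 306 and 312 CPM in N2-400 and 286, 313, 288, 299.7 and 288 CPM in N2-0. The mutants were the lowest group without ethanol and the highest with it, whereas the wild-type groups overlapped. The ethanol effect on alh-1 was 0.64 (SE 0.04) in the mutants and 0.10 (SE 0.04) in wild type, with an interaction of 0.54 (SE 0.06, adjusted p = 1.59e-05). A related gene of the same family, alh-5, rose 5.56-fold in the mutants and 2.45-fold in wild type (interaction 1.18, SE 0.24, adjusted p = 0.00653). The acetyl-CoA synthetase acs-19 averaged 654 ± 50.3 CPM in RA503-400 and 458 ± 20.5 CPM in RA503-0, against 568.1 ± 23.1 CPM in N2-400 and 511 ± 33.4 CPM in N2-0 (SD, n = 5 each). Its interaction was 0.36 (SE 0.08, adjusted p = 0.00753). The fourth gene of the list, alh-12, had an effect of 0.20 (SE 0.09) in the mutants and fell 1.69-fold in wild type (interaction 0.96, SE 0.13, adjusted p = 1.72e-04). In all, 4 of 15 tested members of the list for ethanol and aldehyde metabolism passed the interaction test, all with a higher effect in the mutants, against 3.08% of all genes. This and the other lists were drawn up with earlier results of these data known, so their shares are no independent evidence. In the lower direction, 1 member also passed with the recovery libraries in the fit and 2 with the replicate block, where 768 and 464 of all genes did. The median interaction of the list was 0.05, against 0.02 for all genes; adh-1 was listed under its older name and is not counted among the 15.

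**Figure D2:**
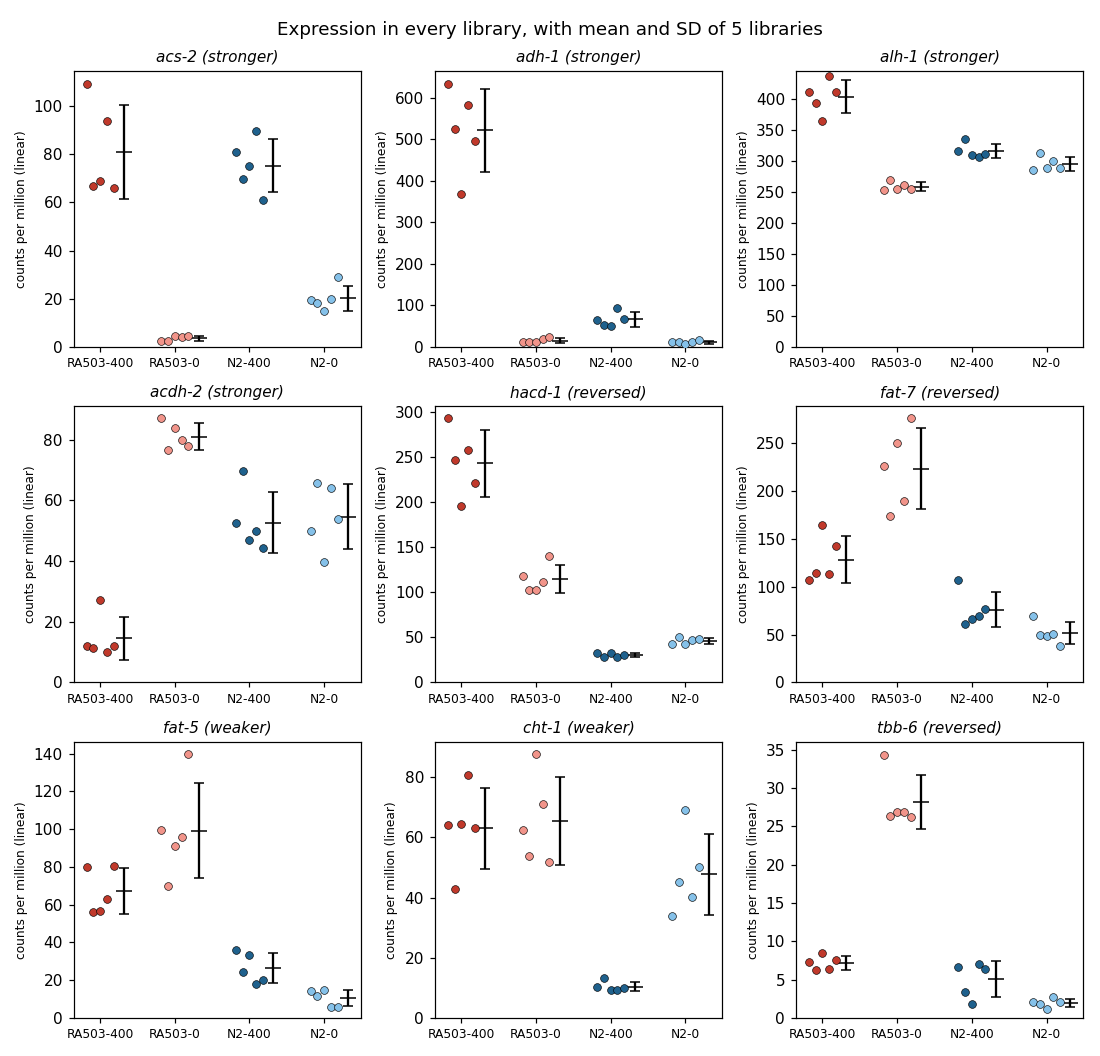
CPM (linear scale from 0) of 9 genes in every library of RA503-400, RA503-0, N2-400 and N2-0, with the mean and SD of 5 libraries as a bar at the right of each group. For acs-2 the RA503-0 libraries are the lowest, for hacd-1 the RA503-400 libraries are the highest and the N2-400 libraries the lowest, and for cht-1 the N2-400 libraries stand alone below the rest.

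Fatty acid activation and β-oxidation held the gene with the smallest interaction p and several others of large effect. Reversal was clearest for hacd-1 (chromosome V, 1460369 to 1461613), a hydroxyacyl-CoA dehydrogenase, which had 293, 247, 196, 258 and 221 CPM in RA503-400 and 117, 103, 103, 111 and 139.6 CPM in RA503-0. In wild type it had 32.2, 27.7, 32.05, 28.4 and 29.9 CPM in N2-400 and 42.5, 49.9, 42.2, 46.5 and 47.8 CPM in N2-0. No libraries of the 4 groups overlapped. Ethanol raised hacd-1 2.12-fold in the mutants and lowered it 1.53-fold in wild type, and the interaction was 1.69 (SE 0.13, adjusted p = 1.49e-07).

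The acyl-CoA synthetase acs-2 (chromosome V, 15567394 to 15569897), which activates fatty acids for mitochondrial oxidation and is induced by fasting, had 109, 66.9, 69.0, 93.9 and 66.0 CPM in RA503-400 and 2.53, 2.48, 4.44, 3.91 and 4.35 CPM in RA503-0. Wild type had 80.9, 69.6, 75.2, 89.9 and 60.9 CPM in N2-400 and 19.3, 18.3, 14.9, 19.8 and 28.9 CPM in N2-0. Exposed worms of both genotypes overlapped, so the larger effect in the mutants (22.8-fold, against 3.72-fold in wild type) went with a lower level at 0 mM, -2.50 on the log2 scale relative to N2-0 (adjusted p = 4.89e-09). The interaction for acs-2 was 2.62 (SE 0.26, adjusted p = 5.46e-06).

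The acyl-CoA dehydrogenase acdh-2 (chromosome II, 5544778 to 5547492) fell in the mutants. It had 11.84, 11.45, 27.3, 10.1 and 12.1 CPM in RA503-400 and 87.1, 76.6, 84.0, 79.8 and 77.9 CPM in RA503-0, against 52.5, 69.7, 46.8, 50 and 44.4 CPM in N2-400 and 49.8, 65.7, 39.8, 64.1 and 53.9 CPM in N2-0. Replicate 3 was the highest RA503-400 library and still below every library of the other 3 groups, and the wild-type groups overlapped. The fall was 5.60-fold in the mutants, the effect in wild type was -0.06 (SE 0.18), and the interaction was -2.43 (SE 0.27, adjusted p = 1.50e-05). Small effects also passed: acdh-12 was lowered 1.07-fold in the mutants and raised 1.16-fold in wild type, and acdh-10 had an effect of 0.09 (SE 0.07) in the mutants and was raised 1.5-fold in wild type. The gene acdh-2 overlaps ins-13 in the annotation, as cht-1 overlaps slcf-2 and col-101 overlaps drl-1, so reads of each pair may not be told apart. The same limit holds for other named genes that overlap a neighbor. Among them are acs-1, acs-22, clec-266, Y73B6BL.31, aqp-1, F21C10.10, mltn-9, fat-5, pod-2, cysl-2 and jmjc-1.

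Another pair of acyl-CoA synthetase genes were induced less in the mutants. The gene acs-1, which activates branched-chain fatty acids, had 326, 351, 318, 335 and 345 CPM in RA503-400 and 328, 282, 351, 324 and 352 CPM in RA503-0, against 302, 284, 288, 259.8 and 265 CPM in N2-400 and 191, 183, 174, 174 and 175 CPM in N2-0. The mutant groups overlapped each other and RA503-0 overlapped N2-400, while N2-0 was below all other libraries. The effect of ethanol on acs-1 was 0.03 (SE 0.05) in the mutants, against a 1.56-fold rise in wild type. The interaction for acs-1 was -0.61 (SE 0.08, adjusted p = 5.97e-05). For acs-22, an ortholog of a mammalian fatty acid transport protein, ethanol gave a 1.28-fold rise in the mutants and a 1.96-fold rise in wild type (interaction -0.62, SE 0.08, adjusted p = 9.74e-05).

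Of 45 tested β-oxidation genes, 10 (22.2%, against 3.08% of all genes) passed the interaction test, 2 with a higher and 8 with a lower effect in the mutants, and their classes were 6 weaker, 2 stronger and 2 reversed. The list median was -0.17, against 0.02 for all genes. Members with a lower effect numbered 11 to 18 in the 6 other settings, and 2 members had a higher effect in each. Over all genes, those with a lower effect numbered 386 to 768 in the same settings, against 291 in the reported fit. Peroxisomal enzymes that shorten long side chains were among the weaker ones, namely maoc-1 at 0.85 in the mutants and 1.31 in wild type (log2 effects, interaction -0.46, SE 0.10, adjusted p = 0.0118) and dhs-28 at 0.61 in the mutants and 0.97 in wild type (interaction -0.35, SE 0.09, adjusted p = 0.0381), both chosen after their values were seen. The call of dhs-28 was lost in 12 of the 20 fits that each left out 1 library (adjusted p up to 0.0814).

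Desaturases and other fatty acid synthesis genes were split among all 3 classes. The Δ9 desaturase fat-7 (chromosome V, 7151353 to 7153146) had 107, 114.2, 164, 113 and 143 CPM in RA503-400 and 226, 174, 250.1, 189 and 277 CPM in RA503-0, against 107, 60.6, 66.4, 69.2 and 76.4 CPM in N2-400 and 69.6, 49.4, 48.8, 50.4 and 38.1 CPM in N2-0. It fell 1.74-fold in the mutants and rose 1.48-fold in wild type, where the groups overlapped (interaction -1.37, SE 0.23, adjusted p = 8.82e-04). Another Δ9 desaturase, fat-5, had 79.95, 55.95, 56.8, 63.2 and 80.3 CPM in RA503-400 and 99.6, 69.95, 91.3, 95.9 and 139.6 CPM in RA503-0, against 35.8, 24.4, 33.5, 17.97 and 19.8 CPM in N2-400 and 14.4, 11.7, 14.8, 5.88 and 5.92 CPM in N2-0. All mutant libraries were above all wild-type libraries. The effect in the mutants was -0.56 (SE 0.20) with an adjusted p of 0.0520, fat-5 rose 2.51-fold in wild type, and the interaction was -1.89 (SE 0.32, adjusted p = 0.00128).

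In contrast, the Δ5 desaturase fat-4 and acetyl-CoA carboxylase pod-2, the enzyme that commits acetyl-CoA to fatty acid synthesis, rose more in the mutants. For fat-4 the means were 351 ± 22.04 CPM in RA503-400 and 223 ± 15.3 CPM in RA503-0, against 209 ± 7.46 CPM in N2-400 and 185 ± 15.6 CPM in N2-0 (SD, n = 5 each), with an interaction of 0.48 (SE 0.08, adjusted p = 0.00111). For pod-2 the log2 effect was 0.46 in the mutants and 0.07 in wild type (interaction 0.39, SE 0.08, adjusted p = 0.00465). The ω3 desaturase fat-1 was raised in both genotypes, with a mean of 416 ± 25.9 CPM in RA503-400 and 311 ± 15.3 CPM in RA503-0, against 363 ± 14.6 CPM in N2-400 and 272 ± 6.73 CPM in N2-0. Its effects were 0.42 (SE 0.04) in the mutants and 0.42 (SE 0.04) in wild type (interaction 0.00, SE 0.06, adjusted p = 0.989). In the list of 25 fatty acid synthesis genes, 6 (24%, against 3.08% of all genes) passed the interaction test, 4 higher and 2 lower in the mutants. In the mutants 12 members were upregulated and 5 downregulated, where 10.9% and 10.3% of all genes were. In wild type 8 were upregulated and 3 downregulated, where 6.63% and 6.84% of all genes were.

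The 4 weaker genes named for a fall in wild type included a chitinase and a C-type lectin. Chitinase cht-1 (chromosome X, 3397613 to 3400017) had 64.1, 42.8, 64.5, 80.6 and 63.0 CPM in RA503-400 and 62.3, 53.8, 87.8, 71.0 and 51.9 CPM in RA503-0, against 10.1, 13.2, 9.32, 9.37 and 9.93 CPM in N2-400 and 33.8, 45.3, 69.2, 40.2 and 49.99 CPM in N2-0. The exposed wild-type libraries were below all 15 others. The ethanol effect on cht-1 was -0.05 (SE 0.16) in the mutants, it fell 4.61-fold in wild type, and the interaction was 2.15 (SE 0.25, adjusted p = 2.68e-05). The C-type lectin clec-266 was also lowest in N2-400, with 35.4, 21.8, 34.2, 50.1 and 29.5 CPM in RA503-400 and 33.8, 27.7, 45.5, 41.4 and 32.02 CPM in RA503-0, against 4.93, 4.36, 2.95, 3.35 and 2.92 CPM in N2-400 and 12.9, 17.6, 20.4, 15.9 and 17.3 CPM in N2-0 (interaction 2.14, SE 0.27, adjusted p = 6.06e-05). Its effect was -0.07 (SE 0.17) in the mutants, against a 4.63-fold fall in wild type. Y82E9BR.17, for which no role is given here, had an effect of -0.42 (SE 0.17) in the mutants and fell 5.88-fold in wild type (interaction 2.13, SE 0.29, adjusted p = 1.36e-04).

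C-type lectins are secreted carbohydrate-binding proteins, many of them induced by pathogens. Of 132 tested, 9 (6.82%, against 3.08% of all genes) passed the interaction test, 7 with a higher and 2 with a lower effect in the mutants. Members with a higher effect numbered 11 with DESeq2 and 13 with the replicate block, where 319 and 454 of all genes had one. Of the members that gained an effect, clec-7 rose 2.59-fold in the mutants with -0.42 (SE 0.22) in wild type, and clec-265 fell 2.17-fold in the mutants with 0.19 (SE 0.16) in wild type. The level of clec-196 was 7.01, 2.601, 5.13, 6.998 and 4.50 CPM in RA503-400 and 6.93, 4.82, 8.304, 6.72 and 7.66 CPM in RA503-0, against 0.821, 0.501, 0.455, 0.759 and 0.655 CPM in N2-400 and 3.08, 2.398, 5.77, 2.46 and 3.90 CPM in N2-0, with an effect of -0.38 (SE 0.24) in the mutants and a fall of 5.48-fold in wild type (interaction 2.07, SE 0.40, adjusted p = 0.00367).

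A list of 35 innate immune genes, drawn by the study from its ethanol-responsive genes seen in wild type and not in swsn-9 mutants, held 11 genes that passed the interaction test, all of them weaker in the mutants, 2 with a higher and 9 with a lower effect (31.4%, against 3.08% of all genes). The list was chosen on these samples by a call in wild type and none in the mutants. Its share, classes, directions, median and counts by genotype are therefore no independent evidence. K09D9.1 had 1.93, 3.18, 6.08, 3.58 and 4.04 CPM in RA503-400 and 3.62, 4.20, 7.95, 3.96 and 3.97 CPM in RA503-0, against 3.70, 0.715, 2.56, 4.87 and 2.92 CPM in N2-400 and 0.615, 0.423, 0.241, 0.126 and 0.325 CPM in N2-0. Every N2-0 library was below every library of the other groups, and the mutants without ethanol already overlapped the exposed wild type. Its interaction was -3.45 (SE 0.59, adjusted p = 0.00128). C49G7.10 had an effect of -0.41 (SE 0.31) in the mutants and rose 3.399-fold in wild type (interaction -2.17, SE 0.48, adjusted p = 0.0114). F35E12.6 had 0.23 (SE 0.11) in the mutants and fell 1.56-fold in wild type, and F10A3.4 had 0.12 (SE 0.18) in the mutants and fell 2.54-fold in wild type. Over the list, 1 gene was upregulated and 0 downregulated in the mutants, against 23 upregulated and 6 downregulated in wild type, and its median interaction was -0.32.

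The genes F01D5.1 and F01D5.5, which encode CUB-like domain proteins of the pathogen response, are members of that list that did not pass the interaction test. F01D5.1 had 2.48, 1.21, 1.24, 0.518 and 1.26 CPM in RA503-400 and 3.14, 1.65, 1.002, 1.84 and 3.20 CPM in RA503-0, against 0, 0.143, 0.227, 0.570 and 0.403 CPM in N2-400 and 1.14, 1.199, 0.641, 3.22 and 2.92 CPM in N2-0. The RA503-400 libraries overlapped all 3 other groups. The effect in the mutants was -0.68 (SE 0.45) with an adjusted p of 0.289, the effect in wild type was -2.67 (SE 0.56) with an adjusted p of 0.00200, and the difference between them did not pass (1.99, SE 0.72, adjusted p = 0.153). It passed with the replicate block (adjusted p = 0.0310), and in the other alternatives, leave-one-out fits included, it did not. For F01D5.5 the effect was -0.24 (SE 0.29) in the mutants and -1.11 (SE 0.36) in wild type, with an interaction of 0.87 (SE 0.46, adjusted p = 0.364). Of 15 tested CUB-like genes, 1 passed (6.67%, against 3.08% of all genes). With the replicate block 2 passed as higher and 1 as lower, where 454 and 464 of all genes did. The gene that passed without the block, dod-19, fell 2.39-fold in the mutants and had -0.33 (SE 0.14) in wild type (interaction -0.93, SE 0.19, adjusted p = 0.00770). In this list, 10 members were downregulated in the mutants and 11 in wild type, where 10.3% and 6.84% of all genes were. The member dod-24 fell 6.69-fold in the mutants and 8.43-fold in wild type (interaction 0.33, SE 0.44, adjusted p = 0.768), and the histone demethylase gene jmjc-1, which is no member, fell 1.41-fold in the mutants and 1.79-fold in wild type (interaction 0.34, SE 0.21, adjusted p = 0.461).

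Detoxification enzymes attach sugars, glutathione or oxygen to foreign and endogenous molecules. Among UDP-glucuronosyltransferases, 9 of 64 (14.1%, against 3.08% of all genes) passed the interaction test, 3 with a higher and 6 with a lower effect in the mutants. With the replicate block 8 were higher and 10 lower, where 454 and 464 of all genes were. The member ugt-16 had 10.5, 9.08, 8.49, 8.61 and 10.8 CPM in RA503-400 and 7.78, 7.71, 8.73, 7.99 and 8.93 CPM in RA503-0, against 32.9, 22.2, 19.2, 31.5 and 34.2 CPM in N2-400 and 5.71, 7.90, 5.45, 8.28 and 9.17 CPM in N2-0. The exposed wild type stood above the other 3 groups, with an effect of 0.21 (SE 0.16) in the mutants and a 3.81-fold rise in wild type (interaction -1.73, SE 0.22, adjusted p = 6.65e-05). The member ugt-62 had 61.98, 66.9, 96.0, 66.9 and 67.9 CPM in RA503-400 and 188, 169, 276, 227 and 173 CPM in RA503-0, against 277, 185, 246, 323 and 339.9 CPM in N2-400 and 189, 113, 126, 155 and 267 CPM in N2-0. It fell 2.87-fold in the mutants and rose 1.61-fold in wild type, where the groups overlapped (interaction -2.21, SE 0.28, adjusted p = 5.97e-05). In the same family ugt-66 rose 3.85-fold in the mutants with -0.18 (SE 0.28) in wild type, and ugt-23 had 0.19 (SE 0.08) in the mutants and fell 1.39-fold in wild type.

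Flavin monooxygenase fmo-5 rose in both genotypes and more in the mutants, with a mean of 61.7 ± 4.11 CPM in RA503-400 and 11.99 ± 0.693 CPM in RA503-0, against 38.1 ± 5.60 CPM in N2-400 and 11.02 ± 1.02 CPM in N2-0 (SD, n = 5 each). It was 1 of 5 flavin monooxygenases to pass (20%, against 3.08% of all genes), with an interaction of 0.58 (SE 0.12, adjusted p = 0.00930). Cytochrome P450 genes passed for 4 of 69 (5.80%) and glutathione S-transferases for 3 of 42 (7.14%), against 3.08% of all genes, and several of these calls were lost with single libraries left out. The replicate block gave 454 higher and 464 lower over all genes. In it the P450 genes gave 4 higher and 10 lower and the transferases 1 higher and 6 lower. The clearest were cyp-14A1, which fell 3.67-fold in the mutants with 0.06 (SE 0.27) in wild type (interaction -1.94, SE 0.39, adjusted p = 0.00512), and gst-39, which had -0.17 (SE 0.14) in the mutants and rose 2.27-fold in wild type (interaction -1.35, SE 0.21, adjusted p = 4.57e-04).

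**Figure D3:**
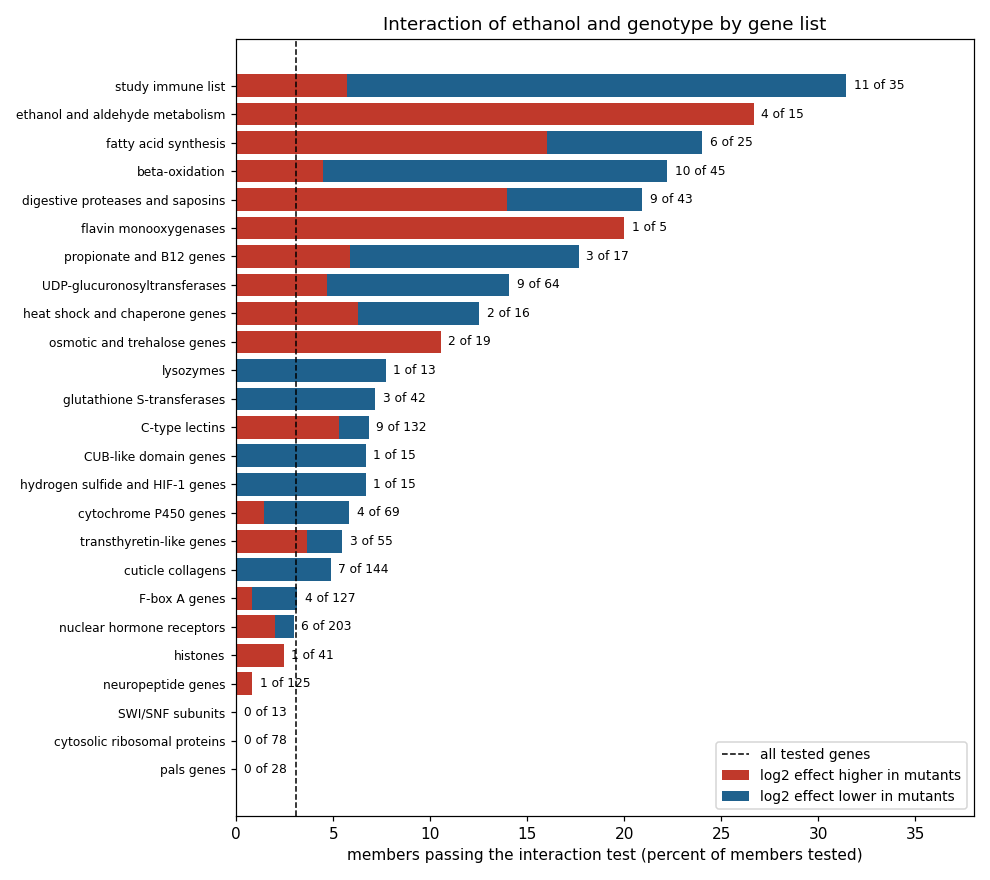
Share of the tested members of each gene list that passed the interaction test, in percent, divided into members with a higher (red) and a lower (blue) log2 effect in the mutants, with the count beside each bar. The dashed line marks the 3.08% of all tested genes, and most lists reach to its right. The longest bar (31.4%) is the study immune list, which was chosen on these samples. Ethanol and aldehyde metabolism, fatty acid synthesis, β-oxidation, and proteases and saposins are among the others to its right. Ribosomal proteins, pals genes and SWI/SNF subunits have 0 members. Every list was drawn up with earlier results of these data known, so no bar is independent evidence.

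Of 43 tested aspartic proteases, cathepsin B-like proteases and saposin-like proteins of digestion and the lysosome, 9 (20.9%, against 3.08% of all genes) passed, 6 with a higher and 3 with a lower effect in the mutants. The split was 5 higher and 5 lower both with all 30 libraries and at a mean count of at least 10, and 10 higher and 5 lower with the replicate block. Over all genes it was 218 and 768 with all 30 libraries and 217 and 624 at that mean count. With the block it was 454 and 464. The cathepsin D-like protease asp-4 had 158, 162, 174, 183 and 167 CPM in RA503-400 and 252, 258, 231, 241 and 227 CPM in RA503-0, against 279, 303, 288, 305 and 291 CPM in N2-400 and 256, 314, 312, 270.0 and 275 CPM in N2-0. The exposed mutants were the lowest group, and the wild-type groups overlapped (interaction -0.56, SE 0.08, adjusted p = 1.79e-04). The aspartic protease asp-13 was reversed, raised 1.31-fold in the mutants and lowered 1.52-fold in wild type (interaction 0.99, SE 0.15, adjusted p = 4.73e-04). The saposin-like gene spp-3 rose 1.90-fold in the mutants with 0.01 (SE 0.11) in wild type, and cpr-5 had -0.01 (SE 0.06) in the mutants and rose 1.45-fold in wild type. The lysosomal DNase gene nuc-1, which degrades the DNA of engulfed cells and is no member of that list, had 76.1, 87.2, 76.0, 91.9 and 80.9 CPM in RA503-400 and 55.9, 62.7, 48.5, 54.5 and 48.7 CPM in RA503-0, against 34.5, 43.9, 33.0, 37.2 and 33.4 CPM in N2-400 and 47.0, 46.0, 43.6, 44.99 and 43.0 CPM in N2-0. The mutant groups did not overlap and the wild-type groups did. It rose 1.53-fold in the mutants and fell 1.24-fold in wild type (interaction 0.92, SE 0.11, adjusted p = 3.49e-05).

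Of 144 tested cuticle collagens 7 passed (4.86%, near the 3.08% of all genes), all with a lower effect in the mutants and all of the stronger class. With the replicate block 1 passed as higher and 9 as lower, where 454 and 464 of all genes did. The collagen col-101 (chromosome IV, 325435 to 327020) had 161, 215, 293, 237 and 226 CPM in RA503-400 and 864, 785, 655, 671 and 704 CPM in RA503-0, against 727, 849.8, 705, 846 and 627 CPM in N2-400 and 878, 1002, 766, 905 and 770.2 CPM in N2-0. All RA503-400 libraries were below the other 15, with a fall of 3.26-fold and an interaction of -1.5 (SE 0.17, adjusted p = 1.50e-05). The falls in the mutants were 2.54-fold for col-135, 1.44-fold for col-143 and 2.03-fold for col-8, with interactions of -0.81, -0.69 and -0.83 in that order. Over the whole list of 144, 4 collagens were upregulated and 19 downregulated in the mutants, where 10.9% and 10.3% of all genes were. In wild type 1 was upregulated and 4 downregulated, where 6.63% and 6.84% of all genes were. The list median of the interaction was -0.24, against 0.02 for all genes.

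Several reversed genes were high in the mutants without ethanol. The divergent β-tubulin tbb-6 (chromosome V, 12261531 to 12263368), a gene induced by mitochondrial stress, had 7.35, 6.24, 8.49, 6.43 and 7.48 CPM in RA503-400 and 34.4, 26.3, 26.8, 26.9 and 26.2 CPM in RA503-0, against 6.65, 3.36, 1.82, 7.09 and 6.40 CPM in N2-400 and 2.11, 1.76, 1.12, 2.65 and 2.03 CPM in N2-0. At 0 mM the mutants were above wild type by 3.84 on the log2 scale (adjusted p = 1.50e-10), whereas the exposed groups overlapped. Ethanol lowered tbb-6 3.91-fold in the mutants and raised it 2.58-fold in wild type (interaction -3.33, SE 0.35, adjusted p = 9.22e-06). The galectin lec-6 had 133, 156, 168, 159 and 145 CPM in RA503-400 and 209, 213, 242, 226 and 215 CPM in RA503-0, against 194, 182, 190.1, 241 and 210.2 CPM in N2-400 and 141, 149, 127, 176 and 185 CPM in N2-0. Its fall in the mutants was 1.45-fold and its rise in wild type 1.31-fold (interaction -0.93, SE 0.12, adjusted p = 1.15e-04). For mltn-9 the fall was 1.79-fold in the mutants and the rise 2.58-fold in wild type (interaction -2.21, SE 0.26, adjusted p = 3.23e-05).

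In the opposite direction, F09C8.1 had 7.05, 9.13, 8.08, 9.95 and 7.62 CPM in RA503-400 and 2.65, 3.99, 3.08, 2.64 and 2.09 CPM in RA503-0, against 1.73, 1.86, 1.31, 1.14 and 1.51 CPM in N2-400 and 3.16, 2.89, 2.97, 3.41 and 2.43 CPM in N2-0. The groups did not overlap within either genotype, and the mutants and wild type without ethanol did (interaction 2.53, SE 0.25, adjusted p = 5.46e-06). F21C10.10 rose 2.09-fold in the mutants and fell 1.34-fold in wild type (interaction 1.49, SE 0.16, adjusted p = 9.22e-06). Among genes of the stronger class outside the lists, the aquaporin aqp-1 had 46.7, 48.6, 39.9, 51.1 and 39.1 CPM in RA503-400 and 26.2, 20.7, 21.8, 24.7 and 28.5 CPM in RA503-0, against 13.96, 18.2, 13.8, 14.8 and 13.6 CPM in N2-400 and 20.9, 18.5, 15.6, 16.9 and 16.8 CPM in N2-0, so that only the mutants separated by ethanol (interaction 1.14, SE 0.15, adjusted p = 6.65e-05). The gene chca-1 fell 3.29-fold in the mutants, with 5.92, 10.1, 8.67, 7.57 and 7.68 CPM in RA503-400 and 24.7, 23.2, 32.3, 24.8 and 25.5 CPM in RA503-0, against 31.5, 25.9, 34.5, 34.8 and 36.9 CPM in N2-400 and 38.8, 24.3, 21.1, 26.7 and 35.5 CPM in N2-0 (interaction -1.88, SE 0.21, adjusted p = 1.59e-05). H29C22.1 fell 1.84-fold in the mutants and was at -0.03 (SE 0.09) in wild type (interaction -0.85, SE 0.12, adjusted p = 1.38e-04). Y73B6BL.31, of the weaker class, was at -0.09 (SE 0.10) in the mutants and rose 2.2-fold in wild type (interaction -1.23, SE 0.15, adjusted p = 2.68e-05).

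**Figure D4:**
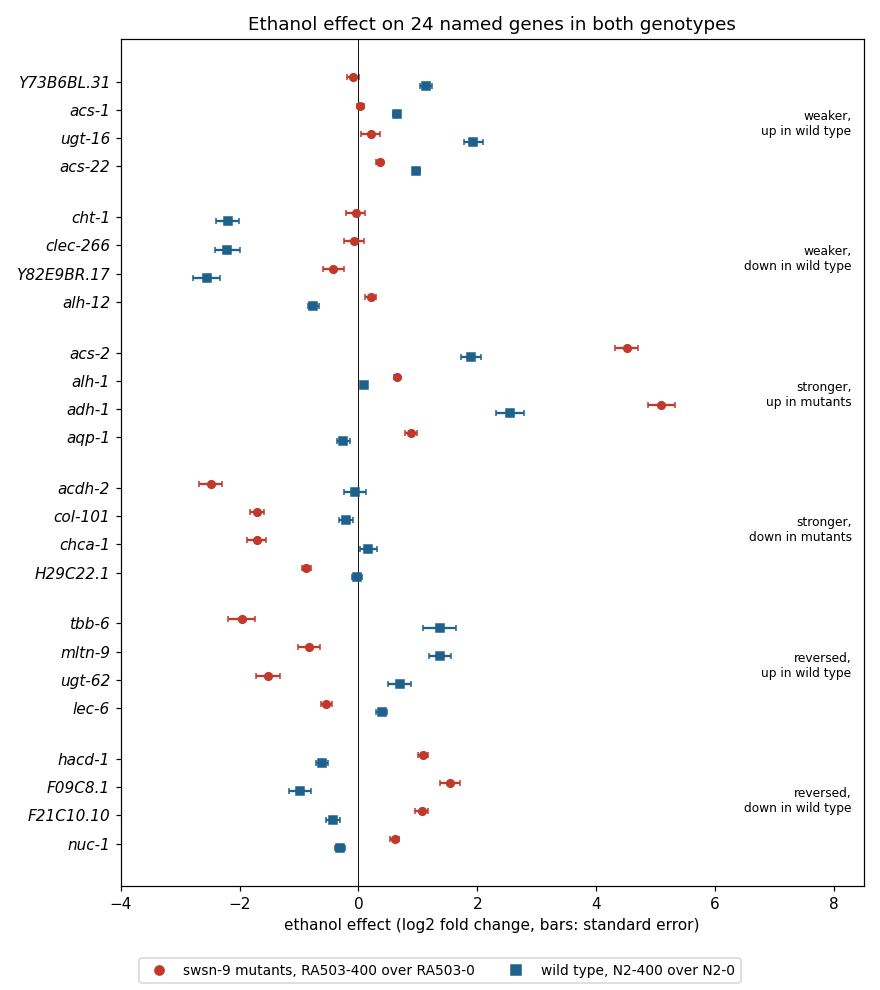
Log2 ethanol effect with its standard error for 24 genes, 4 with the smallest interaction p in each of 6 sets, in swsn-9 mutants (red circles) and wild type (blue squares). Mutant effects of the weaker genes lie near 0, from -0.42 for Y82E9BR.17 to 0.36 for acs-22, wild-type effects of the stronger genes range from -0.26 for aqp-1 to 2.55 for adh-1, and reversed genes have their markers on opposite sides of 0.

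Smaller numbers passed in other lists. Of 17 genes for propionate breakdown and vitamin B12-dependent metabolism, 3 passed (17.65%, against 3.08% of all genes). The propionate shunt genes hach-1 and hphd-1 fell in both genotypes and further in the mutants, hach-1 by 2.05-fold against 1.31-fold in wild type (interaction -0.65, SE 0.13, adjusted p = 0.00666) and hphd-1 by 2.05-fold against 1.403-fold in wild type (interaction -0.55, SE 0.12, adjusted p = 0.0127). Methionine synthase metr-1 rose 1.196-fold in the mutants with -0.19 (SE 0.07) in wild type (interaction 0.44, SE 0.10, adjusted p = 0.0114). Among 15 hydrogen sulfide and HIF-1 genes 1 passed (6.67%). This was cysl-2, with a fall of 2.47-fold in the mutants and 1.38-fold in wild type (interaction -0.84, SE 0.14, adjusted p = 9.39e-04). Linker histone his-24 was the only one of 41 histone genes to pass (2.44%), with -0.21 (SE 0.14) in the mutants and a 2.77-fold fall in wild type (interaction 1.26, SE 0.22, adjusted p = 0.00132). Of 55 transthyretin-like genes 3 passed (5.5%), among them ttr-50, which fell 1.51-fold in the mutants and 2.89-fold in wild type, and ttr-15, which fell 1.45-fold in the mutants with 0.04 (SE 0.08) in wild type. Nuclear hormone receptors (6 of 203) and F-box A genes (4 of 127) passed at shares near that of all genes, with nhr-35 (interaction 0.72), nhr-104 (-0.79), nhr-228 (-0.64), fbxa-98 (-1.22) and fbxa-27 (-1.395) as the clearest. Of 16 heat shock and chaperone genes 2 passed (12.5%), and the endoplasmic reticulum Hsp70 gene hsp-4 fell 1.21-fold in the mutants with 0.18 (SE 0.07) in wild type (interaction -0.45, SE 0.10, adjusted p = 0.0154).

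Some calls in these lists were lost when single libraries were left out. Leaving out 1 library at a time, the interaction was lost for irg-2 without N2-0 replicate 2 (adjusted p = 0.0530) or N2-400 replicate 4 (0.0534), and for fbxa-182 without N2-400 replicate 4 or 5 or RA503-400 replicate 1 (up to 0.0573). It was lost for cyp-25A1 without RA503-400 replicate 4, RA503-0 replicate 1, N2-400 replicate 4 or N2-0 replicate 2 (up to 0.0610), and for nhr-156 without RA503-400 replicate 1 or 2, RA503-0 replicate 1 or N2-0 replicate 4 (up to 0.0615). For the osmotically induced inositol transporter hmit-1.1 the same held without RA503-400 replicate 4, RA503-0 replicate 1 or 2 or N2-0 replicate 3 or 4 (up to 0.0702). Other calls were lost in more of the 20 fits, for gst-13 in 7, for fbxa-55 in 9, for lysozyme lys-3 in 11 and for nlp-34 in 11. The number was 13 each for gst-1 and small heat shock gene hsp-12.6, 15 each for ttr-5 and cyp-35A3, and 16 for cyp-33C8. The call of ttr-5 was also lost with all 30 libraries, without the filter and with the size factors of DESeq2 (adjusted p 0.0573 to 0.102), that of fbxa-55 with all 30 libraries and without the filter (up to 0.0581), that of hsp-12.6 without the filter (0.0616) and that of phat-3 with all 30 libraries (0.0713). The gene lys-3, the only one of 13 lysozymes to pass (7.69%, against 3.08% of all genes), had 0 or 1 count in each N2-0 library, so no fold is given for wild type. It had 19 to 30 counts in RA503-400 and 17 to 93 in RA503-0, against 1 to 6 in N2-400. For nlp-34, which was the only one of 125 neuropeptide genes to pass (0.8%), the counts were 28 to 150 in RA503-400 and 22 to 65 in RA503-0, against 0 to 5 in N2-400 and 0 to 75 in N2-0. With the replicate block 3 lysozymes passed as higher and 2 as lower. The neuropeptide genes then gave 5 higher and 1 lower, where 454 and 464 of all genes were. The median interaction was 0.38 over the lysozymes and 0.36 over the neuropeptide genes.

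Most genes called in only 1 genotype did not pass the test of the difference. Of 2472 genes called in the mutants and not in wild type, 213 (8.62%) passed the interaction test, 210 of them as stronger. Of 1150 called in wild type and not in the mutants, 196 (17.04%) passed, all as weaker. These classes follow from the definitions, which leave genes called in only 1 genotype no other class than unclassified. Of 1163 called in both, 1121 had the same sign, and 67 of these passed, 34 with the larger effect in the mutants. The other 42 were the reversed genes.

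Several lists had 0 members past the interaction test in edgeR's quasi-likelihood test, against 3.08% of all genes. Over all 17175 genes, 2708 had an unadjusted p under 0.05, 858 passed in DESeq2 and 918 passed with the replicate block. Among 13 SWI/SNF subunit genes, 0 passed at an unadjusted p under 0.05 and 0 passed in DESeq2. Among 78 cytosolic ribosomal protein genes, 7 had an unadjusted p under 0.05 and 1 passed in DESeq2, and among 28 pals genes these numbers were 2 and 0. With the replicate block 1 ribosomal protein gene and 1 pals gene passed. Marker lists for sperm (28 genes), neurons (10), body wall muscle (8) and adult cuticle (5) had 0 at an unadjusted p under 0.05 and 0 in DESeq2, but with the replicate block 2 of the 10 neuron markers passed, both higher. For germline meiosis 4 of 14 had an unadjusted p under 0.05, for early embryo 2 of 9, and for eggshell and oocyte 1 of 16, with 1 eggshell gene passing in DESeq2. Of 6 yolk genes, vit-4 passed (interaction -0.70, SE 0.19, adjusted p = 0.0482), and of 7 pharynx genes, phat-3 passed (interaction 1.17, SE 0.31, adjusted p = 0.0409), but both calls were lost in most of the leave-one-out fits, 16 of 20 for vit-4 and 15 for phat-3. With all 30 libraries 0 pharynx genes passed, and with the replicate block 4 of 7 did, all higher.

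The summed levels of cell type markers were compared among the groups. Eggshell and oocyte markers summed to 14790 to 15070 CPM in RA503-400 and 14160 to 16140 CPM in RA503-0, against 17250 to 19900 CPM in N2-400 and 17250 to 20440 CPM in N2-0, so that the mutants were below wild type and ethanol did not separate either genotype. Germline meiosis markers were likewise lower in the mutants, at 3348 to 3527 CPM in RA503-400 and 3245 to 3513 CPM in RA503-0, against 4001 to 4493 CPM in N2-400 and 4457 to 4764 CPM in N2-0. Pharynx markers summed to 176 to 334 CPM in RA503-400 and 109 to 212 CPM in RA503-0, against 68.2 to 165 CPM in N2-400 and 59.8 to 131 CPM in N2-0. Neuron markers summed to 389 to 482 CPM in RA503-400 and 336 to 399 CPM in RA503-0, against 262 to 314 CPM in N2-400 and 267 to 289 CPM in N2-0, so all mutant libraries were above all wild-type libraries. Ethanol upregulated 3 of the 10 in the mutants and 0 in wild type, where 10.9% and 6.63% of all genes were upregulated. Body wall muscle markers summed to 4738 to 5838 CPM in RA503-400 and 4754 to 6319 CPM in RA503-0, against 3224 to 5322 CPM in N2-400 and 3500 to 4915 CPM in N2-0. The median interaction was 0.93 over the sperm markers and 1.03 over the adult cuticle markers, although 0 of 28 and 0 of 5 passed. Sperm markers summed to 188 to 438 CPM in RA503-400 and 23.2 to 455 CPM in RA503-0, against 69.4 to 305 CPM in N2-400 and 65.6 to 355 CPM in N2-0. Adult cuticle markers summed to 1219 to 1450 CPM in RA503-400 and 893 to 1504 CPM in RA503-0, against 916 to 1444 CPM in N2-400 and 789 to 1244 CPM in N2-0. All 4 groups overlapped in both sums, and the part of sperm number or cuticle stage in the results, the collagens included, was not tested. Yolk genes summed to 66380 to 85280 CPM in RA503-400 and 62860 to 90930 CPM in RA503-0, against 67860 to 90630 CPM in N2-400 and 79650 to 90490 CPM in N2-0.

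**Figure D5:**
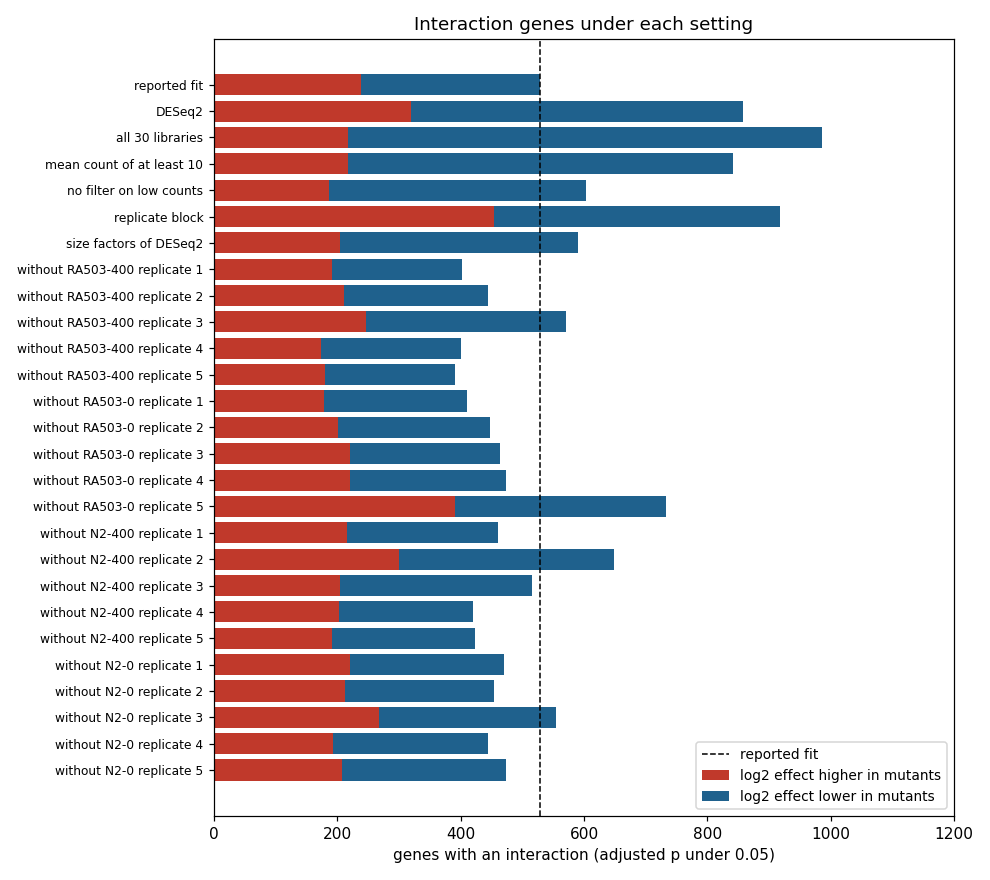
Number of genes that passed the interaction test (adjusted p under 0.05) in the reported fit (dashed line, 529), in 6 other settings and with each of the 20 libraries left out, divided into genes with a higher (red) and a lower (blue) log2 effect in the mutants. Leave-one-out counts run from 390 without RA503-400 replicate 5 to 733 without RA503-0 replicate 5.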

How the data were processed

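Polyadenylated RNA of whole worms was sequenced with paired 150-base reads. The authors aligned the reads with STAR (2.6.0a) and deposited uniquely mapped raw counts per gene for all libraries, not normalized; the assembly is written WBcel325 in the methods, the gene IDs are those of WBcel235, and the strand setting of counting is not given in the sources used here. Genes of the same family that share sequence lose reads under unique mapping. Coordinates and symbols came from the Ensembl annotation of WBcel235, which held 46484 of 46739 gene IDs.

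Counts of the 20 libraries harvested immediately after exposure were fitted with edgeR (4.0.16, R 4.3.3; TMM normalization, 1 coefficient per group, quasi-likelihood F test, 17175 genes with a mean count of at least 1), and p-values were adjusted by Benjamini-Hochberg over all genes tested, with a threshold of 0.05. The interaction was the contrast (RA503-400 minus RA503-0) minus (N2-400 minus N2-0). Alternatives were DESeq2 (1.42.0), its size factors in edgeR, all 30 libraries, a mean count of at least 10, no filter, the replicate number as a block and each library left out. CPM used TMM library sizes, and fold changes of groups with at most 3 counts in every library were not given. Named genes were the 4 with the smallest interaction p, at a mean count of at least 20, in each of 6 sets (weaker, stronger or reversed, up or down), 6 genes the study discusses, and up to 4 passing members of each of 25 gene lists; genes said to be chosen after their values were seen are exceptions. Members and lists were chosen with earlier results of these data known. The fit was tested on simulated data.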

Additional observations from a re-analysis of the deposited data

Results flagged for a closer look

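The ethanol effect differed between swsn-9 mutants and wild type by a test of the interaction for 529 genes. For the 24 genes named by rule, the interaction on the log2 scale was as follows. Among weaker genes it was -1.23 for Y73B6BL.31, -0.61 for acs-1, -1.73 for ugt-16, -0.62 for acs-22, 2.15 for cht-1, 2.14 for clec-266, 2.13 for Y82E9BR.17 and 0.96 for alh-12. Among stronger genes it was 2.62 for acs-2, 0.54 for alh-1, 2.55 for adh-1, 1.14 for aqp-1, -2.43 for acdh-2, -1.5 for col-101, -1.88 for chca-1 and -0.85 for H29C22.1. Among reversed genes it was -3.33 for tbb-6, -2.21 for mltn-9, -2.21 for ugt-62, -0.93 for lec-6, 1.69 for hacd-1, 2.53 for F09C8.1, 1.49 for F21C10.10 and 0.92 for nuc-1. All 24 kept their call with each of the 20 libraries left out in turn and in the 6 other alternatives. They were picked for the smallest p in these same data, so this was likely from the start. Of all 529 calls, 72.97% to 94.52% were kept with 1 library left out.

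Single libraries stood apart from the other 4 of their group in 6 of 96 groups checked, where chance gives about 1 in 20. The gap to the nearest library, as a share of the range of the group, was 0.813 for acdh-2 and 0.792 for ugt-62, both in RA503-400 replicate 3, which was high. It was 0.811 for alh-12 in RA503-0 replicate 3, which was low, and 0.713 for chca-1 in the same library, which was high. It was 0.909 for tbb-6 in RA503-0 replicate 1 and 0.769 for cht-1 in N2-400 replicate 2, both high.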

How the results depend on the processing

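The interaction passed for 529 genes, against 858 with DESeq2, 986 with all 30 libraries, 841 at a mean count of at least 10 and 918 with the replicate block; 518, 481, 483 and 511 of the 529 were among them. Genes with a lower effect numbered 291, against 539, 768, 624 and 464 in the same order, and the block gave 454 with a higher effect. Stronger genes numbered 444, 557, 460 and 447, the block gave 362 weaker genes, and reversed genes numbered 64 at a mean count of at least 10 and 89 with the block. Members of the gene lists that passed numbered 174 with the block, against 96. Control and ethanol plates ran in parallel, but the labels do not say that a replicate number marks a day; over the 10 pairs of the same number, deviations from group means correlated at -0.114 to 0.328, 5 of 10 were above 0.1, and the own number was best in 5 of 10. With 1 library left out, counts ranged over 390 to 733 for the interaction, 174 to 391 higher, 210 to 348 lower, 168 to 301 weaker, 175 to 419 stronger, 27 to 56 reversed and 74 to 112 in the lists. They were 2744 to 4335 for ethanol in the mutants, 1842 to 2408 for ethanol in wild type, 6459 to 7595 for genotype at 0 mM, 7454 to 8875 for genotype at 400 mM and 24 for the named genes. Over 98 named genes these fits kept 1789 values and lost 171 calls, and 0 reversed. The causes were not tested.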

Other observations

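The following 3 genes, whose products act in protein folding in the endoplasmic reticulum, were chosen after their values were seen and say nothing of other genes of that kind. The GRP94 homolog enpl-1 was at -0.01 in the mutants and 0.50 in wild type on the log2 scale (interaction -0.51, SE 0.07, adjusted p = 2.83e-04). Protein disulfide isomerase pdi-2 fell in the mutants by 0.16 and rose in wild type by 0.21 (interaction -0.37, SE 0.06, adjusted p = 5.34e-04), and the co-chaperone dnj-28 fell by 0.24 and rose by 0.40 (interaction -0.64, SE 0.11, adjusted p = 8.41e-04).

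Y41C4A.11 and warf-1, also chosen after their values were seen, had large reversals. Y41C4A.11 had 28.1, 13.5, 55.3, 19.02 and 22.2 CPM in RA503-400 and 134, 106, 295, 163 and 106 CPM in RA503-0, against 27.3, 4.22, 6.70, 26.5 and 19.9 CPM in N2-400 and 2.55, 1.48, 2.32, 2.46 and 7.71 CPM in N2-0 (interaction -4.91, SE 0.69, adjusted p = 1.79e-04). For warf-1 the values were 3.65, 1.04, 3.19, 1.71 and 2.91 CPM in RA503-400 and 13.9, 9.91, 30.9, 14.3 and 9.53 CPM in RA503-0, against 4.76, 0.930, 1.65, 3.99 and 4.69 CPM in N2-400 and 1.41, 0.423, 0.401, 0.569 and 2.03 CPM in N2-0 (interaction -4.40, SE 0.66, adjusted p = 3.42e-04). In both genes the RA503-0 libraries were above all 15 others. The lectin clec-70, chosen in the same way, fell 2.30-fold in the mutants and 21.9-fold in wild type (interaction 3.25, SE 0.63, adjusted p = 0.00426), and the aspartic protease asp-1 rose 1.70-fold in the mutants and was at -0.01 on the log2 scale in wild type (interaction 0.78, SE 0.15, adjusted p = 0.00397).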
